A study of Mus musculus with 6 samples.

Results

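Integrin subunits of blood cells were followed in RNA sequencing libraries of mouse Lin-CD117+ bone marrow cells grown with or without glycyrrhizic acid (GA), a saponin of licorice root. The 10 genes *Itga2b*, *Itgb3*, *Itgav*, *Itga2*, *Itga4*, *Itga6*, *Itgb1*, *Itgb2*, *Itgam* and *Itgal* were taken by symbol from the expression table, which held all 10 among its 18121 genes. All 10 had a mean of at least 1 FPKM (a read count scaled to transcript length in kilobases and to 1000000 mapped fragments) over the 6 libraries and were among the 10912 genes tested. The 3 Ctrl libraries came from cells in normal culture and the 3 GA libraries from cells given GA for 24 h. Per the methods, marrow was taken from female C57BL/6 mice aged 8 weeks, lineage-positive cells were depleted and CD117+ cells (CD117 is the stem cell factor receptor encoded by *Kit*) were selected. The GA concentration was not given in the sources used here, and no label states that the replicates were separate animals or cultures. The p-values then reflect the spread among these 6 libraries alone, and part or all of it may be technical.

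An integrin is a pair of an alpha and a beta subunit that spans the membrane and binds matrix proteins or receptors of other cells. Signals within the cell bring talin and kindlin to the beta tail, which switches the integrin from a bent, low-affinity to an extended, high-affinity form, and ligand binding then signals back through kinases and actin. In blood, alphaIIb-beta3 is the fibrinogen receptor through which platelets aggregate, beta1 integrins hold progenitors in the marrow, and beta2 integrins carry leukocytes across vessel walls.

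The label calls the cells hematopoietic stem cells. *Kit* was read at 19.57, 17.05 and 17.83 FPKM in the Ctrl libraries and at 16.04, 20.35 and 21.2 FPKM in the GA libraries, with overlapping groups. Of 18 stem and progenitor markers 16 averaged at least 1 FPKM and were tested. Among these *Slamf1*, *Procr* and *Hlf* had Ctrl means of 119, 5.6 and 2.44 FPKM. *Mecom* and *Fgd5*, transcripts of long-term stem cells, lay below 1 FPKM at Ctrl means of 0.61 and 0.443. All 20 markers of megakaryocytes and platelets that are not integrins were above 1 FPKM, and *Pf4*, a platelet chemokine, averaged 13331 FPKM in Ctrl. Some transcripts of other lines were also high, with Ctrl means of 2092 FPKM for *Lyz2* (monocyte list), 759 for *Hbb-bt* (erythroid list) and 460 for *Ngp* (neutrophil list). Levels varied within these lists. In Ctrl 4 of 12 erythroid markers averaged under 1 FPKM, among them *Klf1* (0.603) and *Alas2* (0.043). The same held for 1 of 15 monocyte and 1 of 15 neutrophil markers. Of the 10 lymphoid markers in the table, 8 lay below 1 FPKM in Ctrl. The libraries are therefore described below as Lin-CD117+ cells with high levels of transcripts of the megakaryocyte line and of some transcripts of other lines. Among the libraries GA replicate 1 lay apart, with the highest sum of FPKM (555449 against 508672 to 525018) and the position farthest from the rest on the first principal component. The rank correlation of a gene's deviation with its transcript length was -0.59 across genes in that library, -0.31 and -0.18 in GA replicates 2 and 3, and -0.059 to 0.066 in Ctrl. The transcripts of the integrin genes were 2970 to 9767 nt long, so results are given with and without GA replicate 1 and with the length trend removed.

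RefSeq promoter sequences (GRCm38.p6) were found for 6 of the 10 genes, and no sequence was available here for *Itgb3*, *Itga6*, *Itgb2* and *Itgal*. The 250 bases before the start are shown for *Itga2b* and *Itga2*, platelet subunits with lower values in all 3 GA libraries, and for *Itgam*, the myeloid subunit with overlapping groups. Both strands were searched for GATAA, the core bound by GATA factors, and GAGGAA, a core bound by ETS factors such as PU.1. Capitals mark GAGGAA or its reverse complement TTCCTC. The 2 motifs do not overlap each other.
Itga2b, chr11:102469884-102470133, minus strand: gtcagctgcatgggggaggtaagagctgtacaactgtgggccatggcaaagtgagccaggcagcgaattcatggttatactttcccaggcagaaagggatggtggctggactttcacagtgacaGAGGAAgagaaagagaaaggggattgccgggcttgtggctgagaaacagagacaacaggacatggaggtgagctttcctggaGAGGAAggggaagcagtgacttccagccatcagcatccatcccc
Itga2, chr13:114932101-114932350, minus strand: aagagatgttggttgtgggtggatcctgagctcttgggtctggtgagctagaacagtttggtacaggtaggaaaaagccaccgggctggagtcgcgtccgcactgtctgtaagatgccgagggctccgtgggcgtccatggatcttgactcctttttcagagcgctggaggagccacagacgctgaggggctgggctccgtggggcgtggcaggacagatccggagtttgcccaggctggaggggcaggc
Itgam, chr7:128062390-128062639, plus strand: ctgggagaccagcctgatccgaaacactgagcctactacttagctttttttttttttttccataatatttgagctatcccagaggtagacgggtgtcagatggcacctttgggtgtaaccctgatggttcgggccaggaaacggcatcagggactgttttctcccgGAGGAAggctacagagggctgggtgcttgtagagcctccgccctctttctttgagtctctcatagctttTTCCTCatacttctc
GAGGAA stood 2 times before *Itga2b*, starting 126 and 44 bases before the transcript start, and 2 times before *Itgam*, at 84 bases on the gene's strand and at 15 bases on the other strand. The *Itga2* window held neither motif. GAGGAA also stood 2 times before *Itgav* and 1 time before *Itgb1*, and was not in the *Itga4* window, so 4 of 6 windows held it against 23.3% of 32851 promoter windows of that length. GATAA was in 0 of the 6 windows and in 22.6% of all windows. A match in these letters describes the sequence and is not evidence of binding.

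In Ctrl cells the integrin transcripts spanned more than 2 orders of magnitude, and the platelet receptor led. *Itga2b* had the highest level, followed by *Itgb3* and *Itga6*. *Itgb2* and *Itgb1* came next and overlapped each other over the 6 libraries, as did *Itga2* and *Itgal* after them. *Itgam*, *Itga4* and *Itgav* had the lowest levels, in that order, each with all libraries below those of the gene before it. *Itga2b* and *Itgb3* together made up 76.3% ± 0.175 of the summed FPKM of the 10 genes in Ctrl and 75.2% ± 1.16 in GA (SD, n = 3 each). The sum itself was 2340 to 2365 FPKM in the Ctrl libraries and 2090 to 2112 FPKM in the GA libraries.

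**Figure D1:**
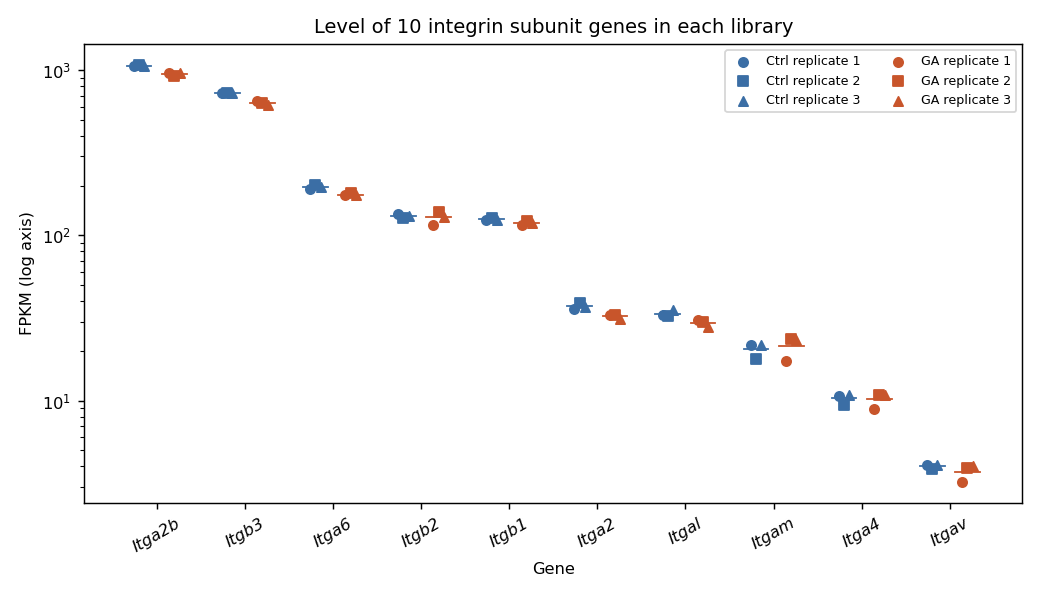
FPKM on a log axis of the 10 integrin subunit genes in each of the 3 Ctrl (blue) and 3 GA (orange) libraries, ordered by mean level, with horizontal lines at the group means. *Itga2b* has the highest points (917 to 1075 FPKM) and *Itgav* the lowest (3.21 to 4.09 FPKM), and the 3 GA points lie below the 3 Ctrl points for *Itga2b*, *Itgb3*, *Itga6*, *Itgb1*, *Itga2* and *Itgal*.

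With GA, no integrin gene passed the test across all genes. limma on log2(FPKM + 1), two-sided with Benjamini-Hochberg adjustment over the 10912 genes, called 0 of the 10, as it called 0% of all genes. At an unadjusted p under 0.05, 5 of the 10 were lower in GA (*Itga2b*, *Itgb3*, *Itga2*, *Itga6* and *Itgal*) and 0 were higher, against 4.63% of all tested genes lower and 8.88% higher. In 6 of the 10, these 5 and *Itgb1*, all 3 GA libraries lay below all 3 Ctrl libraries, which held for 8.29% of tested genes, and 0 had all GA libraries above, which held for 11.6%. The median log2 fold change of the 10 was -0.12 (9 lower and 1 higher in value), beside 0.012 for all tested genes. As the genes were chosen with earlier results known, these shares are a description and not a test. A group of 3 against 3 cannot give an exact two-sided permutation p below 0.1, the value reached by each of the 6 genes without overlap.

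The platelet receptor subunits had GA means of 0.888 (*Itga2b*) and 0.870 (*Itgb3*) times the Ctrl mean, and both passed the test once GA replicate 1 was left out. *Itga2b* (chr11:102453297-102469883 of GRCm38, minus strand, 30 exons) encodes alphaIIb, known as CD41, the alpha chain of the platelet fibrinogen receptor. It was read at 1064, 1075 and 1056 FPKM in Ctrl and at 966, 917 and 954 FPKM in GA, a mean of 1065 ± 9.41 against 946 ± 25.8 (SD, n = 3 each). No GA library reached the lowest Ctrl library. The log2 fold change was -0.17 (SE 0.051, 95% interval -0.29 to -0.057), with a limma adjusted p of 0.244 that ranged from 0.0229 to 0.584 over 16 alternatives. Leaving out GA replicate 1 gave -0.19 with a limma adjusted p of 0.0463.

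*Itgb3* (chr11:104608000-104670476, plus strand, 15 exons) encodes beta3, the partner of alphaIIb and also of alphaV. Its levels were 722, 731 and 727 FPKM in Ctrl and 647, 631 and 618 FPKM in GA, a mean of 727 ± 4.68 against 632 ± 14.6. The Ctrl libraries lay within 10 FPKM of each other and the GA libraries all lay lower. The log2 fold change was -0.20 (SE 0.047, 95% interval -0.31 to -0.096; limma adjusted p = 0.189, range over 16 alternatives 0.0229 to 0.579). Without GA replicate 1 it was -0.22 with a limma adjusted p of 0.0276, and *Itgb3* and *Itga2b* were then the 2 of 10 genes called lower, against 0.55% of all tested genes called lower in that fit. Removing the length trend and GA replicate 1 together also called these 2 of 10, at -0.21 for *Itga2b* and -0.22 for *Itgb3* with a limma adjusted p of 0.0229 each, where 1.02% of all tested genes were called lower. With the length trend removed from all 6 libraries neither gene passed, at log2 fold changes of -0.16 for both.

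*Itga2* (chr13:114833081-114932100, minus strand, 30 exons) encodes alpha2, which pairs with beta1 to form a collagen receptor of platelets. Its 3 Ctrl libraries gave 35.9, 39.1 and 36.7 FPKM and its 3 GA libraries 32.9, 33.0 and 31.1 FPKM. All GA values lay below all Ctrl values, with a log2 fold change of -0.20 (SE 0.050; limma adjusted p = 0.217). The fold change moved to -0.14 with the length trend removed, and its 95% interval then ran from -0.28 to 0.0056.

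*Itgav* (chr2:83724397-83806916, plus strand, 30 exons) encodes alphaV, the more widely expressed partner of beta3 and a receptor of vitronectin. It had the lowest level of the 10, at 4.08, 3.84 and 4.09 FPKM in Ctrl and 3.21, 3.9 and 4.04 FPKM in GA. Only GA replicate 1 lay below the Ctrl range, and the log2 fold change of -0.089 (95% interval -0.28 to 0.099; limma adjusted p = 0.711) became -0.0094 without that library. A transcript on the opposite strand, Gm13684, shares 634 exon bases with *Itgav*, and reads of the pair cannot be told apart without a strand setting, which the sources do not state.

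Besides alpha2, beta1 pairs with alpha6 and alpha4, and these integrins anchor progenitors to matrix and stroma. *Itga6* (chr2:71786978-71856758, plus strand, 26 exons) encodes alpha6, a laminin receptor subunit carried by stem cells, progenitors and platelets. The Ctrl libraries gave 191, 202 and 197 FPKM and the GA libraries 175, 180 and 174 FPKM, so that the groups did not overlap. The log2 fold change was -0.16 (SE 0.043, 95% interval -0.25 to -0.060; limma adjusted p = 0.230, lowest over 16 alternatives 0.0805). It was -0.13 with the length trend removed and -0.15 without GA replicate 1.

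*Itgb1* (chr8:128685654-128733200, plus strand, 16 exons) encodes beta1, the shared partner of alpha2, alpha4 and alpha6. It was read at 123, 127 and 124 FPKM in Ctrl and at 115, 122 and 119 FPKM in GA. The groups did not overlap, but GA replicate 2 lay close below Ctrl replicate 1, and the log2 fold change was -0.072 (95% interval -0.17 to 0.023; limma adjusted p = 0.50).

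*Itga4* (chr2:79255500-79333123, plus strand, 28 exons) encodes alpha4, which with beta1 binds VCAM1 and fibronectin and keeps progenitors in the marrow. It was read at 10.7, 9.47 and 10.8 FPKM in Ctrl and at 8.85, 10.8 and 10.9 FPKM in GA. GA replicate 1 and Ctrl replicate 2 were low and the other 4 libraries alike, so the log2 fold change of -0.023 (limma adjusted p = 0.944) turned to 0.066 without GA replicate 1 and to 0.048 with the length trend removed. *Cerkl*, on the opposite strand, shares 1124 exon bases with *Itga4* but averaged 0.607 FPKM.

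None of the 3 beta2 integrin genes of leukocytes passed the test, and differences between them were not tested. *Itgal* (chr7:127296260-127335137, plus strand, 31 exons) encodes alphaL, known as CD11a, which forms LFA-1 with beta2 and binds ICAMs. Its levels were 32.7, 32.4 and 35.2 FPKM in Ctrl and 30.9, 29.9 and 28.0 FPKM in GA, with all GA libraries below all Ctrl libraries. The log2 fold change was -0.17 (SE 0.055, 95% interval -0.30 to -0.050; limma adjusted p = 0.249), -0.20 without GA replicate 1 and -0.13 with the length trend removed.

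*Itgam* (chr7:128062640-128118491, plus strand, 30 exons) encodes alphaM, known as CD11b, which forms Mac-1 with beta2 on neutrophils and monocytes and binds complement fragments and fibrinogen. It was read at 21.9, 17.8 and 21.6 FPKM in Ctrl and at 17.3, 23.5 and 23.2 FPKM in GA. The lowest library of each group, Ctrl replicate 2 and GA replicate 1, had nearly the same level, and the groups overlapped. The log2 fold change was 0.053 (SE 0.116, 95% interval -0.21 to 0.31; limma adjusted p = 0.894). Single libraries moved this value in both directions. Without GA replicate 1 the log2 fold change was 0.19 (95% interval 0.011 to 0.37) with a limma adjusted p of 0.213. Leaving out Ctrl replicate 2 gave -0.040, GA replicate 2 gave -0.020 and GA replicate 3 gave -0.011, and rescaling each library to a sum of 1000000 gave -0.0031. Gm49368, on the same strand, shares 3450 exon bases with *Itgam*, so the reads of *Itgam* may be split.

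*Itgb2* (chr10:77530252-77565686, plus strand, 16 exons) encodes beta2, known as CD18, the partner of alphaL and alphaM. The values were 135, 127 and 131 FPKM in Ctrl and 116, 139 and 130 FPKM in GA, where GA replicate 1 was the lowest and GA replicate 2 the highest of all 6. The log2 fold change was -0.034 (95% interval -0.18 to 0.11; limma adjusted p = 0.878) and turned to 0.038 without GA replicate 1.

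**Figure D2:**
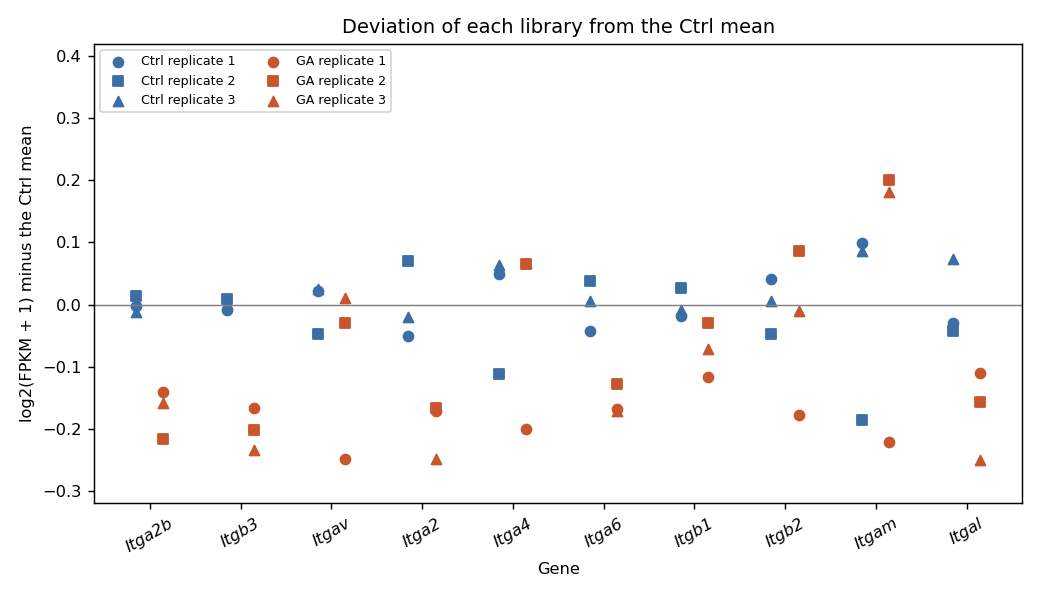
Deviation of each library from the Ctrl mean on log2(FPKM + 1) for the 10 genes, with Ctrl in blue and GA in orange and the replicate number by symbol. The 3 GA points lie below 0 together for *Itga2b*, *Itgb3*, *Itga2*, *Itga6*, *Itgb1* and *Itgal*, whereas for *Itgav*, *Itga4*, *Itgb2* and *Itgam* GA replicate 1 lies lowest, at -0.18 to -0.25, apart from the other GA libraries.

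The 10 genes thus fell into a group of 6 with every GA library below every Ctrl library and a group of 4 (*Itgav*, *Itga4*, *Itgb2* and *Itgam*) in which GA replicate 1 was the lowest of the GA libraries and Ctrl replicate 2 the lowest of the Ctrl libraries. This grouping was made after the values were seen and carries no test. The median deviation of the 10 genes from their Ctrl means was -0.17, -0.079 and -0.11 in the GA libraries 1 to 3. The median log2 fold change of the 10 was -0.10 without GA replicate 1, -0.093 with the length trend removed, and -0.18 with each library rescaled to a sum of 1000000, where all 10 were lower in value. Over all tested genes these medians were 0.037, 0.0027 and -0.043. The rescaling lowered most genes, with 7271 of the 10912 tested genes lower in value in GA.

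**Figure D3:**
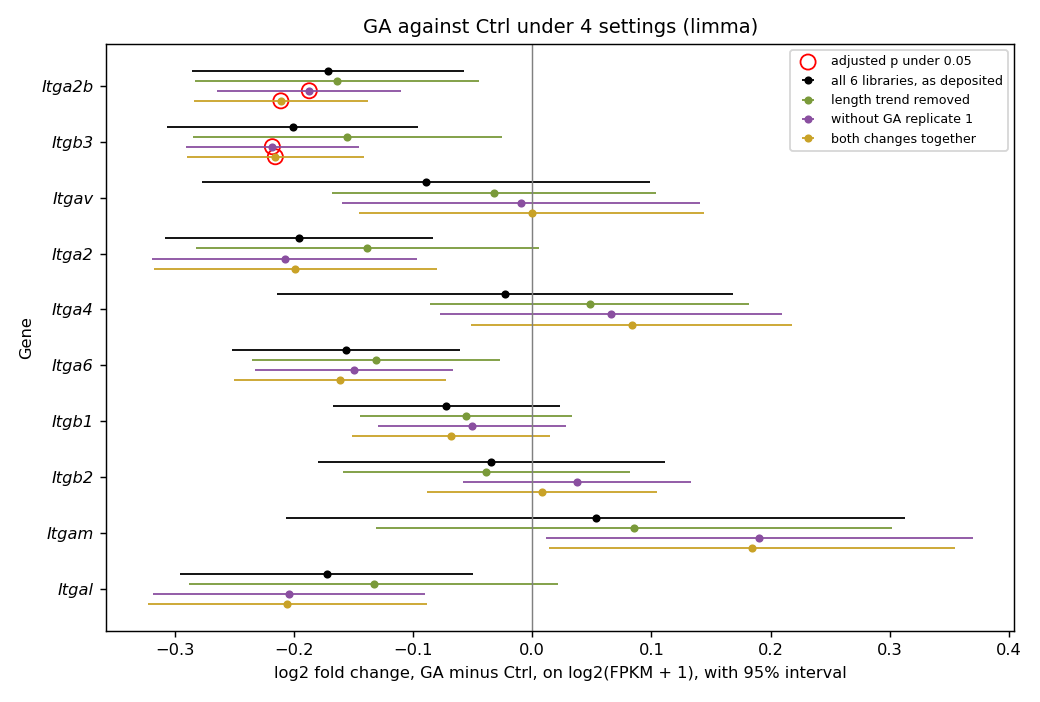
log2 fold change of GA against Ctrl on log2(FPKM + 1) with its 95% interval from limma for the 10 genes, under 4 settings: all 6 libraries as deposited, the length trend removed, GA replicate 1 left out, and both changes together. Red rings mark an adjusted p under 0.05, which *Itga2b* and *Itgb3* reached in the 2 settings without GA replicate 1.

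Within a library, the ratio of an alpha subunit to its beta partner does not depend on the scaling of that library. The length trend was not removed from the ratios and can move them where partners differ in length. The longest transcript was 7108 nt for *Itga2* and 3815 nt for *Itgb1*. *Itga2b* to *Itgb3* was 1.47 ± 0.0107 in Ctrl and 1.497 ± 0.0464 in GA (SD, n = 3 each), between 1.45 and 1.54 in all 6 libraries, with overlapping groups. *Itgav* to *Itgb3* lay between 0.00496 and 0.00654, which puts the level of the alternative beta3 partner under 1% of that of beta3. *Itga6* to *Itgb1* was 1.57 ± 0.0233 in Ctrl and 1.48 ± 0.0279 in GA, with no overlap between the groups.

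*Itga2* to *Itgb1* was 0.298 ± 0.00856 in Ctrl and 0.272 ± 0.0121 in GA, also with no overlap. *Itga4* to *Itgb1*, at 0.0828 ± 0.00727 and 0.0856 ± 0.00771, overlapped. Of the beta2 pairs, *Itgal* to *Itgb2* was 0.256 ± 0.0126 in Ctrl and 0.233 ± 0.0303 in GA, where GA replicate 1 gave 0.268 and the other GA libraries 0.215 each. *Itgam* to *Itgb2* was 0.156 ± 0.0135 and 0.166 ± 0.0147. No test was run on the ratios, which compare RNA levels per length and not protein.

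**Figure D4:**
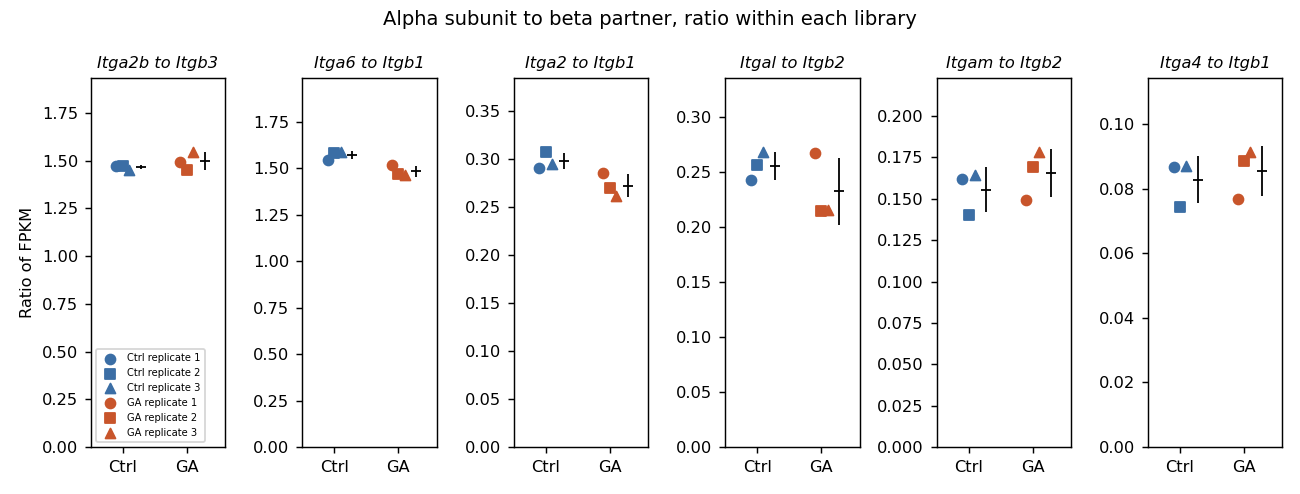
Ratio of the FPKM of an alpha subunit to that of its beta partner in each of the 3 Ctrl and 3 GA libraries, each panel with its own axis from 0, with the group mean and SD in black. *Itga2b* to *Itgb3* lies between 1.45 and 1.54 throughout, and the groups are separate for *Itga6* to *Itgb1* and *Itga2* to *Itgb1*.

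Other integrin subunits were scarce. Of 17 further subunits listed, 16 were in the table and 4 had a mean of at least 1 FPKM: *Itga5* (a fibronectin receptor subunit), *Itgb5*, *Itgb7* (a partner of alpha4) and *Itga1*. limma called 0 of these 4, 0 had an unadjusted p under 0.05, and their groups overlapped in all 4. *Itga5* was the highest, at 17.0, 16.6 and 16.6 FPKM in Ctrl and 15.29, 16.03 and 18.6 FPKM in GA. *Itgb7* gave 5.9, 4.76 and 5.07 FPKM in Ctrl and 5.1, 5.73 and 6.78 FPKM in GA, a log2 fold change of 0.13 (SE 0.102; limma adjusted p = 0.616). *Itgb5* and *Itga1* had fold changes of -0.031 and -0.0017. *Itgax*, the beta2 partner of dendritic cells and macrophages known as CD11c, averaged 0.987 FPKM, just under the minimum.

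The adaptors and kinases that switch integrins on were read next. Of 44 listed genes of integrin activation and linkage to actin, 38 were tested, and the blood cell kindlin *Fermt3* averaged 844 FPKM in Ctrl while the other kindlins *Fermt1* and *Fermt2* lay under 0.1 FPKM. limma called 0 of the 38. At an unadjusted p under 0.05, 6 of the 38 were lower and 2 higher, against 4.63% and 8.88% of all tested genes. Over the 38 genes the log2 fold change had a median of -0.066 (26 lower and 12 higher in value), beside 0.012 for all tested genes. In 12 of the 38 all GA libraries lay below all Ctrl libraries and in 2 all lay above, which held for 8.29% and 11.6% of tested genes.

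*Tln1*, the talin that opens the integrin from within, was read at 612, 607 and 596 FPKM in Ctrl and 511, 543 and 574 FPKM in GA. Its log2 fold change was -0.16 (SE 0.055; limma adjusted p = 0.274), with GA replicate 1 the lowest, and -0.12 without that library. *Fermt3*, the kindlin needed for platelet and leukocyte integrins, gave 855, 834 and 845 FPKM in Ctrl and 772, 775 and 818 FPKM in GA, a log2 fold change of -0.10 (SE 0.050; limma adjusted p = 0.428). Neither gene overlapped between the groups.

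*Src*, a kinase bound to the beta3 tail, averaged 39.5 ± 1.19 FPKM in Ctrl and 35.1 ± 1.85 in GA (SD, n = 3 each; log2 fold change -0.17, limma adjusted p = 0.249). In the other direction, *Parvg*, a parvin of the complex that links integrins to actin in blood cells, averaged 27.9 ± 1.31 and 32.4 ± 1.18 FPKM (0.21, limma adjusted p = 0.212). *Sharpin*, which binds alpha tails and holds integrins inactive, averaged 41.5 ± 1.73 and 45.6 ± 1.29 FPKM (0.13, limma adjusted p = 0.284). Without GA replicate 1 limma called 1 of the 38 tested genes of the list, *Parvb*, another parvin, at a log2 fold change of -0.21 and an adjusted p of 0.0294. In that fit 0.55% of all tested genes were called lower. *Parvb* was named after its values were seen.

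Among the ligand transcripts in the same libraries, *Tgfb1* and *Thbs1* had the highest levels, at Ctrl means of 1044 and 914 FPKM. Bulk RNA does not show which cells held them. Of 30 listed ligands and counter-receptors, 17 were tested, limma called 0, and at an unadjusted p under 0.05 there were 5 of 17 lower and 1 higher, against 4.63% and 8.88% of all tested genes. The median log2 fold change was -0.030 (12 lower and 5 higher in value). *Thbs1*, thrombospondin 1, was read at 889, 936 and 918 FPKM in Ctrl and at 714, 717 and 720 FPKM in GA. The GA libraries lay within 7 FPKM of each other and far below Ctrl. Its log2 fold change was -0.35 (SE 0.049; limma adjusted p = 0.135, 0.0137 without GA replicate 1), the smallest unadjusted p of all tested genes.

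*Vwf*, von Willebrand factor, a ligand of alphaIIb-beta3 and also one of the megakaryocyte markers, averaged 230 ± 4.97 FPKM in Ctrl and 194 ± 18.7 in GA (log2 fold change -0.25, limma adjusted p = 0.221). *Ltbp1*, which stores latent TGF-beta that alphaV integrins can release, averaged 80.4 ± 2.07 and 71.6 ± 2.07 FPKM (-0.17, limma adjusted p = 0.221). *Icam2*, a counter-receptor of LFA-1, averaged 9.37 ± 0.633 and 11.4 ± 1.14 FPKM (0.26, limma adjusted p = 0.245). *Fn1*, fibronectin, gave 5.22, 3.41 and 4.86 FPKM in Ctrl and 3.53, 5.04 and 5.05 in GA, with overlapping groups. The fibrinogen chains *Fga*, *Fgb* and *Fgg*, ligands that platelets take up from plasma, all averaged under 0.1 FPKM.

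**Figure D5:**
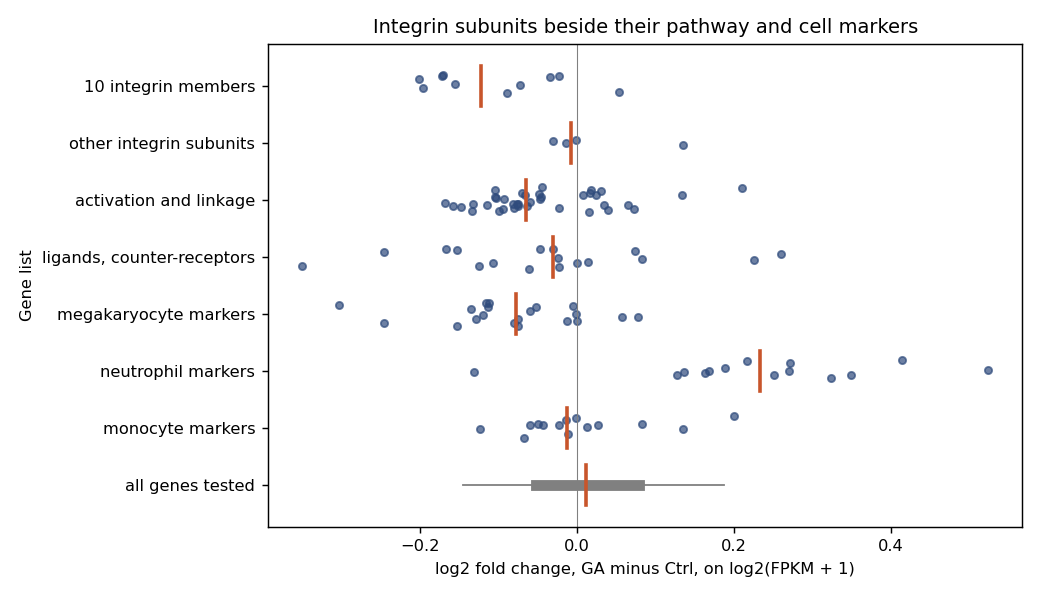
log2 fold change of GA against Ctrl on log2(FPKM + 1) for each tested gene of 7 lists (points, spread vertically at random), with the list median as an orange line, and for all 10912 tested genes the median, the middle 50% (thick grey) and the middle 90% (thin grey). Medians were -0.12 for the integrin genes, -0.078 for the megakaryocyte markers, 0.23 for the neutrophil markers, -0.013 for the monocyte markers and 0.012 for all tested genes.

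Markers of the cell types that carry these integrins were read beside them. Of the 20 megakaryocyte and platelet markers, 17 were lower and 3 higher in value in GA (median log2 fold change -0.078), and without GA replicate 1 or with the length trend removed all 20 were lower, with medians of -0.14 and -0.10. The medians over all tested genes in these settings were 0.037 and 0.0027. At an unadjusted p under 0.05, 6 of the 20 were lower, against 4.63% of all tested genes. In 7 the GA libraries all lay below the Ctrl libraries, which held for 8.29% of tested genes. limma called 0 of the 20 with all 6 libraries and 1, *Tubb1*, without GA replicate 1, where 0.55% of all tested genes were called lower. The setting with the length trend removed and GA replicate 1 left out had called *Itga2b* and *Itgb3*. There limma called 7 of the 20 lower (*Gp1ba*, *Gp1bb*, *Gp9*, *Gp5*, *Treml1*, *Clec1b* and *Tubb1*), against 1.02% of all tested genes. Genes outside the marker list were called lower in that setting too, among them *Parvb*, *Zyx*, *Thbs1* and *Tgfb1*. None of the 20 was at 0. Their summed level, of which *Pf4* is the largest part, was 22081 to 22810 FPKM in Ctrl and 20076 to 27722 FPKM in GA. In GA replicates 1, 2 and 3 the median deviation of the marker list was -0.010, -0.11 and -0.18, and that of *Itga2b* was -0.14, -0.22 and -0.16. The part of the megakaryocyte line in the lower *Itga2b*, *Itgb3* and *Itga2* values was not tested, and in bulk RNA fewer cells of a type and less RNA per cell cannot be told apart.

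For the beta2 integrins, 13 of 14 tested neutrophil markers of 15 listed were higher in value in GA (median 0.23). With the length trend removed 13 were still higher, at a smaller median of 0.15. limma called 0 of the 14 with all 6 libraries. At an unadjusted p under 0.05, 9 of the 14 were higher, against 8.88% of all tested genes. In 7 all GA libraries lay above all Ctrl libraries, which held for 11.6%. The summed level of the marker list was 1722 to 1945 FPKM in Ctrl and 2126 to 2233 FPKM in GA, without overlap. Without GA replicate 1 limma called 3 of the 14 higher, against 0.495% of all tested genes, and 2 (*S100a8* and *Retnlg*) with the length trend also removed, against 0.149%. *Ly6g*, a defining neutrophil marker, lay under 1 FPKM in Ctrl. Of 14 tested monocyte and macrophage markers of 15 listed, 5 were higher and 9 lower in value (median -0.013), and their sum was 2480 to 2815 FPKM in Ctrl and 2655 to 2969 FPKM in GA. In Ctrl replicate 2, where *Itgam* was lowest among the Ctrl libraries, the median deviation was -0.11 for the neutrophil and -0.099 for the monocyte markers. In GA replicate 1, where *Itgam* was lowest of all, it was 0.26 for the neutrophil and -0.053 for the monocyte markers. The part of these cells in the *Itgam* and *Itgb2* levels was not tested.

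Likeness to *Itga2b* was measured by Pearson's r of log2(FPKM + 1) over the 6 libraries, as a description, since the libraries share their group and any gene that differs between the groups is alike on this scale. The 5 most alike of the tested genes were *Slc45a4* (r = 0.996), *Mtss2* (0.993), *Tubb1* (0.990), *Maml3* (0.990) and *Smtn* (0.984). *Tubb1* encodes the beta-tubulin of platelets, and *Smtn* encodes smoothelin, an actin-binding protein of smooth muscle. *Tubb1* was read at 102, 107 and 105 FPKM in Ctrl and at 87.3, 82.0 and 85.2 FPKM in GA. Among the integrin genes r with *Itga2b* was 0.960 for *Itgb3*, 0.881 for *Itga6*, 0.876 for *Itga2*, 0.791 for *Itgal* and 0.646 for *Itgb1*. It was 0.308 for *Itgav*, -0.033 for *Itgb2*, -0.084 for *Itga4* and -0.34 for *Itgam*.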

How the data were processed

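TRIzol RNA of 3 Ctrl and 3 GA samples was made into DNBSEQ libraries and read on a BGISEQ-500 sequencer, after which the authors discarded adaptor, poly-N and low-quality reads. The submitters' processing notes name HISAT2 2.0.4, Bowtie2 2.2.5 and mm10, and the methods name RSEM. The deposited values are FPKM calculated by the authors, with 2 decimals. FPKM divides by transcript length and by library total, so a library that favours short transcripts or holds a few very abundant genes shifts the values of others. The table held no counts. The sources used here give neither annotation nor strand setting. The authors' group mean columns were not used, and 0 per-sample columns lacked a sample.

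limma 3.58.1 in R 4.3.3 was run on log2(FPKM + 1), with a mean-variance trend, on 10912 genes that averaged 1 FPKM or more, and an adjusted p under 0.05 (Benjamini-Hochberg) was called. Fold changes are GA minus Ctrl and understate the change of low genes. The fit was tested on simulated data. Each integrin gene was also given an exact permutation test (20 arrangements). Lengths and positions came from GENCODE transcripts of GRCm38 with a RefSeq match, with a length for 10719 tested genes (98.2%), and the length trend was removed by loess (span 0.5) in each library.

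The integrin genes, lists and alternatives were chosen with earlier results of these data known. The named genes were the 10 integrin genes, other subunits of at least 1 FPKM, from each pathway list the 4 genes with the smallest p plus *Tln1*, *Fermt3*, *Fn1* and *Thbs1*, *Kit*, and the 5 genes most like *Itga2b*. Genes outside this rule (*Parvb*, *Zyx*, *Tgfb1*, *Itgax*, *Itgb2l*, the fibrinogen chains and the cell markers) were named after their values were seen. Marker lists of mast cells, erythroid and lymphoid cells and stroma are given in the closing section.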

Additional observations from a re-analysis of the deposited data

How the results depend on the processing

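Leaving out 1 library in turn gave 0 to 114 called genes over all tested genes (the highest without GA replicate 1, with 54 higher and 60 lower), 0 to 2 of the integrin genes, 0 to 1 of the activation and linkage list and 0 to 1 of the ligands. With the length trend removed and GA replicate 1 left out together, 125 genes were called (16 higher, 109 lower), with 2 integrin genes, 2 of the activation list (*Parvb* and *Zyx*) and 2 ligands (*Thbs1* and *Tgfb1*), beside 7 megakaryocyte markers lower and 2 neutrophil and 2 mast cell markers higher. Rescaling each library to a sum of 1000000 called 3 genes, of which 1 was a ligand, *Thbs1*. Pseudocounts of 0.1 and 0.5, no filter, a minimum mean of 5 FPKM (which removed *Itgav*), median-of-ratios scaling, the length trend removed alone and no mean-variance trend called 0 genes, and the other integrin subunits had 0 calls under every alternative. Directions turned for *Itga4* (0.048 with the length trend removed, 0.083 with GA replicate 1 also left out, -0.079 to 0.066 without 1 library), *Itgb2* (0.0081 with both changes, -0.094 to 0.038 without 1 library) and *Itgam* (-0.0031 after rescaling, -0.040 to 0.19 without 1 library); the cause was not tested. The other 7 integrin genes kept a lower value in GA under all alternatives that gave one. With the replicate number as a replicate block 0 genes were called. Same-numbered samples correlated at -0.17, -0.13 and 0.0039, and different-numbered samples at -0.13 to 0.19. With 3 libraries per group these values cannot decide whether the numbers pair the samples.

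Scaling moved the balance of all genes. Of genes at an unadjusted p under 0.05, 65.7% were higher in GA as deposited (969 higher, 505 lower), 51.7% after median-of-ratios scaling, 46.4% with the length trend removed and 25.5% after rescaling. The table holds no counts, so the depth behind each value, and its counting error, are not known.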

Other observations

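*Itgb2l*, a close relative of *Itgb2* known from mouse neutrophils, was outside the lists and was picked after its values were seen. It was read at 4.63, 3.64 and 4.86 FPKM in Ctrl and at 3.64, 5.06 and 6.27 FPKM in GA. As for *Itgam*, Ctrl replicate 2 and GA replicate 1 were the lowest of their groups, and the groups overlapped (log2 fold change 0.14, limma adjusted p = 0.758).

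Markers of other cell types that carry integrins were also read. Of the mast cell and basophil markers 7 of 10 were tested, with 5 higher and 2 lower in value and a median log2 fold change of 0.080. *Prss34* (0.30), *Cpa3* (0.25) and *Mcpt8* (0.23), named after their values were seen, differed by more than any of the 10 integrin genes in size. Without GA replicate 1 limma called these 3 of 7 higher (median 0.18), against 0.495% of all tested genes. With the length trend also removed it called 2, *Prss34* and *Mcpt8*, against 0.149%. With the length trend removed from all 6 libraries, 3 of the 7 were higher and 4 lower in value, with a median of -0.0029. Erythroid markers were split at 4 higher and 4 lower of 12 listed, with a median of 0.035. Of 12 lymphoid markers, 10 were in the table and 2 reached 1 FPKM. Stroma and endothelium markers gave 4 tested of 11, with 1 higher and 3 lower and a median of -0.12. limma called 0 genes of these 4 lists with all 6 libraries. At an unadjusted p under 0.05 there were 3 higher among the mast cell, 1 higher among the erythroid, 1 higher among the lymphoid and 0 among the stroma markers. Of all tested genes 8.88% were higher at that threshold.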
